A study of Homo sapiens with 8 samples.

Results

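Keratins and other genes best known from epithelia were followed in mesenchymal stromal cells before and after freezing. The set held 10 genes of the 23354 in the table: the keratins KRT7, KRT8, KRT17, KRT18 and KRT19, the tight junction gene CLDN1, and MALL, LY6K, ANXA10 and PLEKHA6. They were found by gene identifier, and all 10 passed the filter on low counts. The genes were chosen by values from an earlier analysis of the same libraries. KRT17 and PLEKHA6 had been selected on their difference between osmolyte-frozen and DMSO-frozen cells. ANXA10, MALL, LY6K, PLEKHA6 and KRT19 had been selected on their fall in DMSO-frozen against fresh cells, and PLEKHA6 and ANXA10 also on their fall in osmolyte-frozen against fresh cells. How KRT7, KRT8, KRT18 and CLDN1 were picked is not given in the sources used here. Levels and fold changes of the 10 genes are therefore a description in all 3 comparisons, with no test, and calls by the fit over all genes are given only beside their share among all genes.

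The cells were mesenchymal stromal cells made from H9, an established line of human embryonic stem cells, grown on gelatin and used at passages 8 to 12. RNA from 8 conditions was sequenced, with 1 library each. The osmolyte-frozen group held 3 libraries of cells frozen in multicomponent solutions labelled SMC, SGC and SGI, after 2 h in SMC and 1 h in SGC or SGI. The DMSO-frozen group held 2 libraries, of cells kept for 1 h or 0 h in DMSO before freezing. The fresh group held 3 libraries of unfrozen cells, taken at 0 h, after 1 h in DMSO or after 1 h in medium. The osmolyte solutions were cooled at 3°C/min and DMSO at 1°C/min, so solution and cooling rate cannot be told apart. Time before freezing also differed, at 2 h or 1 h in the osmolyte-frozen and 1 h or 0 h in the DMSO-frozen group. There was no unfrozen library in SMC, SGC or SGI. With a single library per condition, and separate cultures not stated in the labels, p-values measure only the spread between libraries of unlike conditions, which may be technical.

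The sum of counts per library was 41903498 to 44359714 in osmolyte-frozen, 47299694 to 51166666 in DMSO-frozen and 41198716 to 45235900 in fresh cells. The 10 genes took 0.125% to 0.165% of the counts. Some features of RNA composition moved with the groups, and their part in the results was not tested. The nuclear RNAs MALAT1 and NEAT1 took 0.846% to 0.948% of counts in osmolyte-frozen, 0.393% to 0.452% in DMSO-frozen and 0.472% to 0.567% in fresh cells. Counts assigned to genes were 64.0% to 66.9% of the library total behind the deposited RPKM in osmolyte-frozen, 72.1% to 73.0% in DMSO-frozen and 66.2% to 70.4% in fresh cells. In RNA from a whole culture, fewer cells of a kind and less RNA per cell cannot be told apart.

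Keratins are the intermediate filament proteins of epithelial cells, and each filament pairs a type I with a type II keratin. KRT8 (type II) and KRT18 (type I) are the pair of simple epithelia and are also found at lower levels in some cultured mesenchymal cells, whose main intermediate filament protein is vimentin. KRT7 is a type II partner of glandular and ductal epithelia, KRT19 a type I keratin of simple epithelia, and KRT17 a type I keratin of basal cells and of wounded or stressed epidermis. Claudin-1, the product of CLDN1, is a strand-forming protein of tight junctions. MALL is a membrane protein of the MAL proteolipid family, LY6K a protein of the LY6 family anchored by a lipid, annexin A10 an atypical annexin known from gastric epithelium, and PLEKHA6 a protein with a pleckstrin homology domain that takes part in transport at cell junctions.

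Only KRT8 and KRT18 were abundant. Per coding length, KRT18 averaged 239.6 RPKM over the 8 libraries and ranked 123 of 23354 genes, and KRT8 averaged 235 RPKM and ranked 127. The other members lay far below, from KRT19 at 6.21 RPKM through MALL at 2.81, PLEKHA6 at 2.49, KRT7 at 2.14, LY6K and ANXA10 at 1.98 each and KRT17 at 1.84 to CLDN1 at 1.11 RPKM. Vimentin, encoded by VIM, averaged 772 RPKM and ranked 27.

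Beside these keratins, 5 genes typical of epithelial cells were low or at 0, some junction genes were well detected, and genes of stromal cells were high. CDH1, which encodes E-cadherin, averaged 0.0788 RPKM over the 8 libraries, and the surface protein gene EPCAM 0.585 RPKM. ESRP1, a splicing factor of epithelia, averaged 0.00105 RPKM, GRHL2, an epithelial transcription factor, 0.00287 RPKM, and OVOL2 was listed at 0 in every library. These 5 genes were picked from a list of 58 and are not covered by the naming rule given with the processing. Other identity genes of that list were higher. CD24 averaged 17.25, KLF5 4.23, MUC1 3.78, GRHL1 0.158 and ESRP2 0.123 RPKM. Among the markers of mesenchymal stromal cells, ITGB1, which encodes integrin beta 1, was the highest at 836 RPKM, and THY1 averaged 73.4, ENG 57.5 and NT5E 36.4 RPKM. Other genes from the list of epithelial junctions and identity were detected, among them the tight junction scaffold gene TJP1 at 18.04 RPKM. The desmosome genes DSP averaged 17.02, DSG2 9.87, PKP2 5.74 and JUP 5.16 RPKM. These junction genes were named after their values were seen. Of the 58 genes of that list, 19 had a mean of at least 1 RPKM and 19 a mean under 0.1 RPKM.

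The abundant pair differed little between groups. KRT8 had 719.7, 770.3 and 697 CPM (counts relative to the TMM-scaled library size) in cells frozen in SMC, SGC and SGI, against 735 and 703 CPM in cells frozen after 1 h and 0 h in DMSO, and 815, 829 and 968 CPM in the fresh libraries taken at 0 h, after 1 h in DMSO and after 1 h in medium. The frozen groups overlapped each other, and every frozen library lay below every fresh one, with the fresh library kept in medium highest. KRT8 averaged 729 ± 37.7 CPM (SD, n = 3) in osmolyte-frozen, 719 ± 22.9 CPM (SD, n = 2) in DMSO-frozen and 871 ± 84.8 CPM (SD, n = 3) in fresh cells. Its log2 fold change was 0.02 (SE 0.09) in osmolyte-frozen against DMSO-frozen, -0.28 (SE 0.09) in DMSO-frozen against fresh and -0.26 (SE 0.08) in osmolyte-frozen against fresh cells.

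KRT18 had 547, 604 and 559 CPM in the SMC, SGC and SGI libraries, against 496 and 506 CPM in the libraries frozen after 1 h and 0 h in DMSO, and 527, 518 and 563 CPM in fresh cells in the order above. The osmolyte-frozen and fresh libraries overlapped, and the DMSO-frozen libraries were the lowest. The log2 fold change of KRT18 was 0.19 (SE 0.08) in osmolyte-frozen against DMSO-frozen, -0.10 (SE 0.08) in DMSO-frozen against fresh and 0.09 (SE 0.07) in osmolyte-frozen against fresh cells. The KRT8 entry (chromosome 12 from 53290971 to 53343650 in hg19) shares 996 bases with that of KRT18 (53342655 to 53346685), and no source says whether counting used the strand. The GENCODE v29 annotation names 50 pseudogenes of KRT8 and 67 of KRT18, and of each only 1 is an entry of the table, with at most 10 and 8 counts in a library. Reads from such copies could not be told from those of the genes, so both levels are uncertain to that extent.

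**Figure D1:**
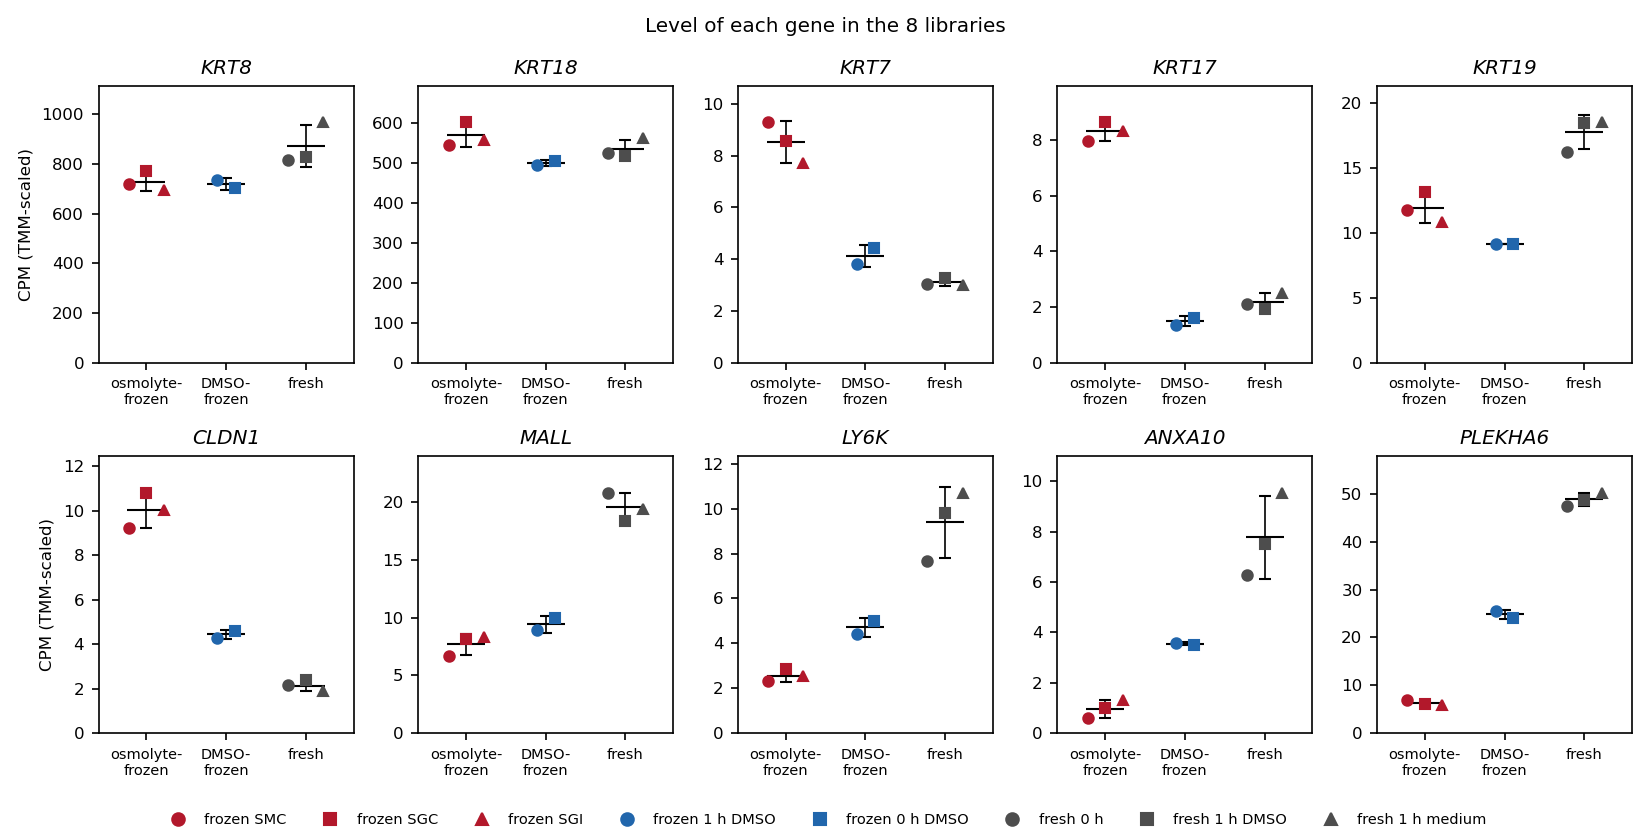
Level of each of the 10 genes in the 8 libraries. The y axis is CPM with TMM scaling and starts at 0 in each panel, points are libraries, and the horizontal line and bars are the mean ± SD of the group. PLEKHA6, ANXA10, LY6K and MALL step up from osmolyte-frozen through DMSO-frozen to fresh cells, CLDN1 and KRT7 step down, and KRT17 is high only in the 3 osmolyte-frozen libraries.

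KRT17 showed the widest difference between the frozen groups. It had 7.98, 8.66 and 8.35 CPM in the SMC, SGC and SGI libraries, against 1.36 and 1.62 CPM in cells frozen after 1 h and 0 h in DMSO, and 2.10, 1.91 and 2.52 CPM in the fresh libraries taken at 0 h, after 1 h in DMSO and after 1 h in medium. The osmolyte-frozen libraries stood together well above the other 5, and the DMSO-frozen libraries lay below the fresh ones. KRT17 averaged 8.33 ± 0.344 CPM (SD, n = 3) in osmolyte-frozen and 1.49 ± 0.185 CPM (SD, n = 2) in DMSO-frozen cells, 5.59-fold apart, with a log2 fold change of 2.48 (SE 0.19). Against fresh cells, at 2.18 ± 0.313 CPM (SD, n = 3), the log2 fold change was 1.94 (SE 0.16) for osmolyte-frozen and -0.55 (SE 0.19) for DMSO-frozen cells. GENCODE v29 names 8 pseudogenes of KRT17, none of them an entry of the table, so reads may be shared here too.

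KRT7 had 9.30, 8.57 and 7.70 CPM in the SMC, SGC and SGI libraries, against 3.80 and 4.42 CPM in cells frozen after 1 h and 0 h in DMSO, and 3.04, 3.27 and 3.01 CPM in fresh cells in the same order as before. The 3 groups did not overlap, and the DMSO-frozen libraries were nearer to the fresh than to the osmolyte-frozen ones. KRT7 averaged 8.52 ± 0.799 CPM (SD, n = 3) in osmolyte-frozen, 4.11 ± 0.434 CPM (SD, n = 2) in DMSO-frozen and 3.11 ± 0.145 CPM (SD, n = 3) in fresh cells. The log2 fold change was 1.05 (SE 0.15) in osmolyte-frozen against DMSO-frozen and 0.40 (SE 0.16) in DMSO-frozen against fresh cells.

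KRT19 followed another order. It had 11.7, 13.1 and 10.8 CPM in the SMC, SGC and SGI libraries, against 9.14 and 9.15 CPM in cells frozen after 1 h and 0 h in DMSO, and 16.2, 18.5 and 18.5 CPM in the fresh libraries taken at 0 h, after 1 h in DMSO and after 1 h in medium. Fresh libraries were the highest, DMSO-frozen libraries the lowest, and the osmolyte-frozen ones lay between without overlap. KRT19 was 1.94-fold lower in DMSO-frozen cells than in fresh ones, a log2 fold change of -0.96 (SE 0.12), and its log2 fold change was 0.38 (SE 0.12) in osmolyte-frozen against DMSO-frozen and -0.58 (SE 0.10) in osmolyte-frozen against fresh cells.

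These differences changed the make-up of the RNA of these 5 keratins only slightly, because the abundant pair held most of it. KRT10, at a mean of 10.8 RPKM, and KRT80, at 4.92 RPKM, are outside the set and not counted in these shares and ratios. Per coding length, KRT8 and KRT18 made up 97.3% to 97.5% of the summed RPKM of the 5 keratins in osmolyte-frozen, 98.5% to 98.6% in DMSO-frozen and 97.8% to 98.03% in fresh cells. KRT7, KRT17 and KRT19 together held 2.59% ± 0.0885 (SD, n = 3) in osmolyte-frozen, 1.47% ± 0.0697 (SD, n = 2) in DMSO-frozen and 2.04% ± 0.121 (SD, n = 3) in fresh cells. The ratio of KRT8 to KRT18, the type II and type I partners, was 0.867 ± 0.0238 (SD, n = 3) in osmolyte-frozen, 0.973 ± 0.0446 (SD, n = 2) in DMSO-frozen and 1.10 ± 0.0600 (SD, n = 3) in fresh cells. The ratio was 0.892, 0.865 and 0.844 in the SMC, SGC and SGI libraries, against 1.004 and 0.941 in cells frozen after 1 h and 0 h in DMSO, and 1.05, 1.09 and 1.17 in fresh cells in the order above, without overlap between groups. Over all 5 keratins, type II to type I stood at 0.850 ± 0.0237 (SD, n = 3) in osmolyte-frozen, 0.959 ± 0.0430 (SD, n = 2) in DMSO-frozen and 1.06 ± 0.0567 (SD, n = 3) in fresh cells. Between the 2 less abundant type I keratins, KRT17 over KRT19 was 0.657 ± 0.0555 (SD, n = 3) in osmolyte-frozen, 0.152 ± 0.0188 (SD, n = 2) in DMSO-frozen and 0.115 ± 0.0161 (SD, n = 3) in fresh cells.

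**Figure D2:**
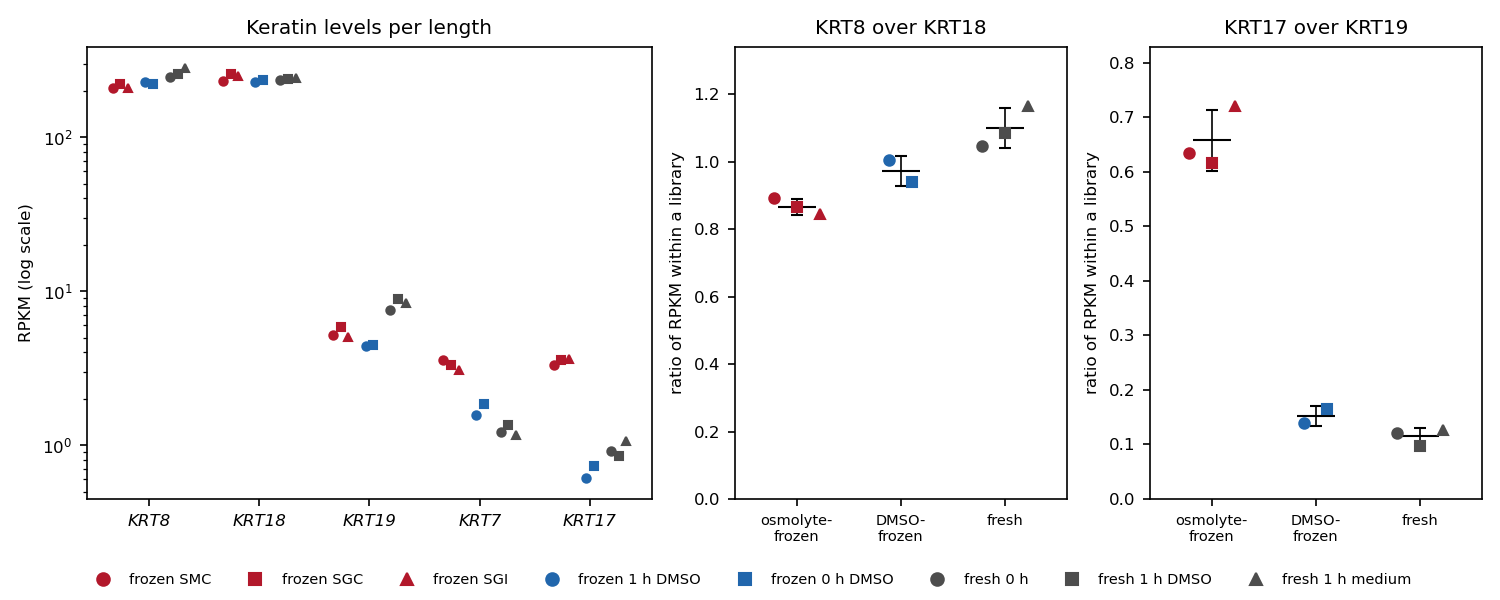
Keratin levels per coding length and their ratios. The left panel gives deposited RPKM on a log axis for 5 keratins in the 8 libraries, and the other panels give KRT8 over KRT18 and KRT17 over KRT19 within each library, with the mean ± SD of the group. KRT8 over KRT18 lies at 0.844 to 0.892 in osmolyte-frozen, 0.941 to 1.004 in DMSO-frozen and 1.05 to 1.17 in fresh libraries, and KRT17 over KRT19 is highest in the osmolyte-frozen ones.

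CLDN1 was the member outside the keratins that was higher after freezing. It had 9.20, 10.8 and 10.01 CPM in the SMC, SGC and SGI libraries, against 4.28 and 4.57 CPM in cells frozen after 1 h and 0 h in DMSO, and 2.15, 2.37 and 1.89 CPM in the fresh libraries taken at 0 h, after 1 h in DMSO and after 1 h in medium. The 3 groups were apart, with the DMSO-frozen libraries between the others. CLDN1 averaged 10.01 ± 0.803 CPM (SD, n = 3) in osmolyte-frozen, 4.43 ± 0.206 CPM (SD, n = 2) in DMSO-frozen and 2.13 ± 0.237 CPM (SD, n = 3) in fresh cells. The log2 fold change was 1.17 (SE 0.15) in osmolyte-frozen against DMSO-frozen, 1.05 (SE 0.16) in DMSO-frozen against fresh and 2.23 (SE 0.14) in osmolyte-frozen against fresh cells.

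PLEKHA6 stood at the other end. It had 6.95, 5.98 and 5.87 CPM in the SMC, SGC and SGI libraries, against 25.5 and 24.1 CPM in cells frozen after 1 h and 0 h in DMSO, and 47.6, 48.7 and 50.3 CPM in fresh cells in the same order. The gaps between the 3 groups were many times the spread within them. PLEKHA6 averaged 6.27 ± 0.591 CPM (SD, n = 3) in osmolyte-frozen, 24.8 ± 0.953 CPM (SD, n = 2) in DMSO-frozen and 48.9 ± 1.38 CPM (SD, n = 3) in fresh cells. It was 3.96-fold lower in osmolyte-frozen than in DMSO-frozen cells, with a log2 fold change of -1.99 (SE 0.10), and its log2 fold change was -0.98 (SE 0.09) in DMSO-frozen against fresh cells.

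ANXA10 was the least abundant member by count in the osmolyte-frozen libraries. It had 0.587, 0.982 and 1.31 CPM in the SMC, SGC and SGI libraries, against 3.58 and 3.51 CPM in cells frozen after 1 h and 0 h in DMSO, and 6.26, 7.50 and 9.56 CPM in the fresh libraries taken at 0 h, after 1 h in DMSO and after 1 h in medium. These levels rest on 24, 44 and 60 counts in the osmolyte-frozen, 164 and 178 in the DMSO-frozen and 280, 330 and 394 in the fresh libraries. The groups were apart, with the widest relative spread among osmolyte-frozen libraries, a coefficient of variation of 37.5% against 1.48% in DMSO-frozen and 21.4% in fresh ones. The log2 fold change was -1.87 (SE 0.25) in osmolyte-frozen against DMSO-frozen, -1.13 (SE 0.23) in DMSO-frozen against fresh and -3.00 (SE 0.23) in osmolyte-frozen against fresh cells.

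LY6K had 2.30, 2.86 and 2.52 CPM in the SMC, SGC and SGI libraries, against 4.41 and 5.01 CPM in cells frozen after 1 h and 0 h in DMSO, and 7.65, 9.82 and 10.7 CPM in fresh cells in the order above. The groups did not overlap, and among fresh cells the library at 0 h was the lowest. Its log2 fold change was -0.88 (SE 0.17) in osmolyte-frozen against DMSO-frozen, -0.99 (SE 0.17) in DMSO-frozen against fresh and -1.87 (SE 0.16) in osmolyte-frozen against fresh cells. The entry of LY6K overlaps that of LOC100288181 by 1915 bases, so reads of the pair may be shared.

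MALL had 6.65, 8.13 and 8.31 CPM in the SMC, SGC and SGI libraries, against 8.92 and 9.94 CPM in cells frozen after 1 h and 0 h in DMSO, and 20.8, 18.4 and 19.5 CPM in fresh cells in the same order. All frozen libraries lay below the fresh ones, and the frozen groups were close to each other, 7.70 ± 0.908 CPM (SD, n = 3) in osmolyte-frozen and 9.43 ± 0.722 CPM (SD, n = 2) in DMSO-frozen cells. The log2 fold change was -0.29 (SE 0.12) between them, and -1.34 (SE 0.11) in osmolyte-frozen and -1.05 (SE 0.12) in DMSO-frozen against fresh cells. MALL lies on chromosome 2 from 110841447 to 110874143 in hg19, inside entries of a duplicated region that include LIMS3, RGPD5 and RGPD6, so its reads may be split with other entries.

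The promoters of the member with the largest fall between the frozen groups, of the member nearest to it in profile and of the non-keratin member that went the other way are shown for their base composition and motifs. The sequences are those of RefSeq on GRCh38.p14, from 250 bases before to 50 bases after the start of the gene, 5′ to 3′ on the strand of the gene, with matches to the searched motifs in capitals. They cover chr1:204359880-204360179 on the minus strand for PLEKHA6, chr4:168092287-168092586 on the plus strand for ANXA10 and chr3:190322397-190322696 on the minus strand for CLDN1.
PLEKHA6: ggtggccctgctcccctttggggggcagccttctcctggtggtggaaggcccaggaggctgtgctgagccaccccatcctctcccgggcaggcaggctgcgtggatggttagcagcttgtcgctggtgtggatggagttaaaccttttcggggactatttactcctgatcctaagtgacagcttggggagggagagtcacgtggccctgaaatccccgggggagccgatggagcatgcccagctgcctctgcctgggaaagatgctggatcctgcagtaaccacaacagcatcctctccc
ANXA10: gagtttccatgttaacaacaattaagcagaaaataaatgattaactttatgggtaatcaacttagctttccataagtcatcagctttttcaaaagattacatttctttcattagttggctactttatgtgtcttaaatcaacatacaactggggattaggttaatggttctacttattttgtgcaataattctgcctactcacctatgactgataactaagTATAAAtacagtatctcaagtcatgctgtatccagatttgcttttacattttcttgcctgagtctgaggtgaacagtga
CLDN1: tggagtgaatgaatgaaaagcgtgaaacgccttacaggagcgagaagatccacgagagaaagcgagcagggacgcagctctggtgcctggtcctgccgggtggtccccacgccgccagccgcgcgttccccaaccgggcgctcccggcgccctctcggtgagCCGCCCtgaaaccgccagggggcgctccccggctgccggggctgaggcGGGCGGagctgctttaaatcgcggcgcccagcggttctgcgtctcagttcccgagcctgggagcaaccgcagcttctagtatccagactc

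On both strands, the AP-1 motif was searched as TGANTCA, the TEAD motif as GGAATG, the E-box of ZEB and SNAI factors as CAGGTG, the GC box as GGGCGG, the TATA box as TATAAA and the CCAAT box by the letters of its name. ANXA10 held TATAAA on its own strand with its first base at position -29 from the start, a motif in 11.5% of 35116 promoters. CLDN1 held the GC box at position -40 and, on the opposite strand, at -88, a motif in 45.0% of promoters, and the PLEKHA6 window held no match. The G and C content was 61.3% for PLEKHA6, 32.7% for ANXA10 and 67.0% for CLDN1, against a median of 58.7% over all promoters. Of the other members with a promoter in the table, MALL held a GC box at -142 before 1 of its 2 starts, and KRT8 held GGAATG, which is in 14% of promoters, at position 18 of an alternative start. The AP-1 motif, the E-box and the CCAAT box, found in 7.7%, 20.6% and 34.6% of all promoters, had no match in the 6 promoters of these 5 genes. A match is a description of the letters in this window only.

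Across the 10 genes, 4 were called higher and 3 lower in osmolyte-frozen against DMSO-frozen cells by edgeR's quasi-likelihood test (Benjamini-Hochberg adjusted p under 0.05 over 15564 genes). The genes called higher were KRT7, KRT17, KRT19 and CLDN1, and those called lower were LY6K, ANXA10 and PLEKHA6. Over all genes tested, 13.6% were called higher and 16.5% lower. The median log2 fold change was 0.10 for the 10 genes and 0.04 for all genes. KRT17 and PLEKHA6 were chosen on this difference, so the calls describe the set and are no test of it. Leaving out the 0 h DMSO-frozen library gave 2136 called genes in place of 4684, the lone DMSO-frozen library being assumed to vary like the other groups, and 6 of the 10 genes were. KRT19 was the call lost there, and also without the library frozen in DMSO for 1 h or without that frozen in SGC. With library totals alone as scaling, 56.4% of the called genes were higher, against 45.3%.

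In DMSO-frozen against fresh cells, CLDN1 was called higher and KRT19, MALL, LY6K, ANXA10 and PLEKHA6 lower, 1 and 5 of the 10 genes. The shares over all genes were 1.25% higher and 0.617% lower. The members' median log2 fold change was -0.75, against -0.01 for all genes. As the genes were chosen partly on this comparison, these counts describe the choice. The 291 genes called came to 91 without the library frozen after 1 h in DMSO and to 99 without the one at 0 h. ANXA10 was no longer called without either of these libraries, and LY6K was not without the one at 1 h.

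Against fresh cells, osmolyte-frozen cells had KRT7, KRT17 and CLDN1 called higher and KRT8, KRT19, MALL, LY6K, ANXA10 and PLEKHA6 lower, 3 and 6 of 10 genes, where 19.1% of all genes were called higher and 21.0% lower. The median log2 fold change was -0.42 for the 10 genes and 0.02 for all genes. KRT8 lost its call without the fresh library in medium or without the SGI library. PLEKHA6 and ANXA10 were chosen partly on this comparison, and these calls too are a description. The comparisons share libraries, so their values are not independent of each other. In MALL, LY6K, ANXA10 and PLEKHA6, every osmolyte-frozen library lay below every DMSO-frozen one and these below every fresh one, as in 4.83% of all genes. In KRT7 and CLDN1 the same order ran upward, as in 5.17% of all genes. KRT8, KRT17, KRT18 and KRT19 followed neither order, with the DMSO-frozen group lowest by mean in all 4.

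**Figure D3:**
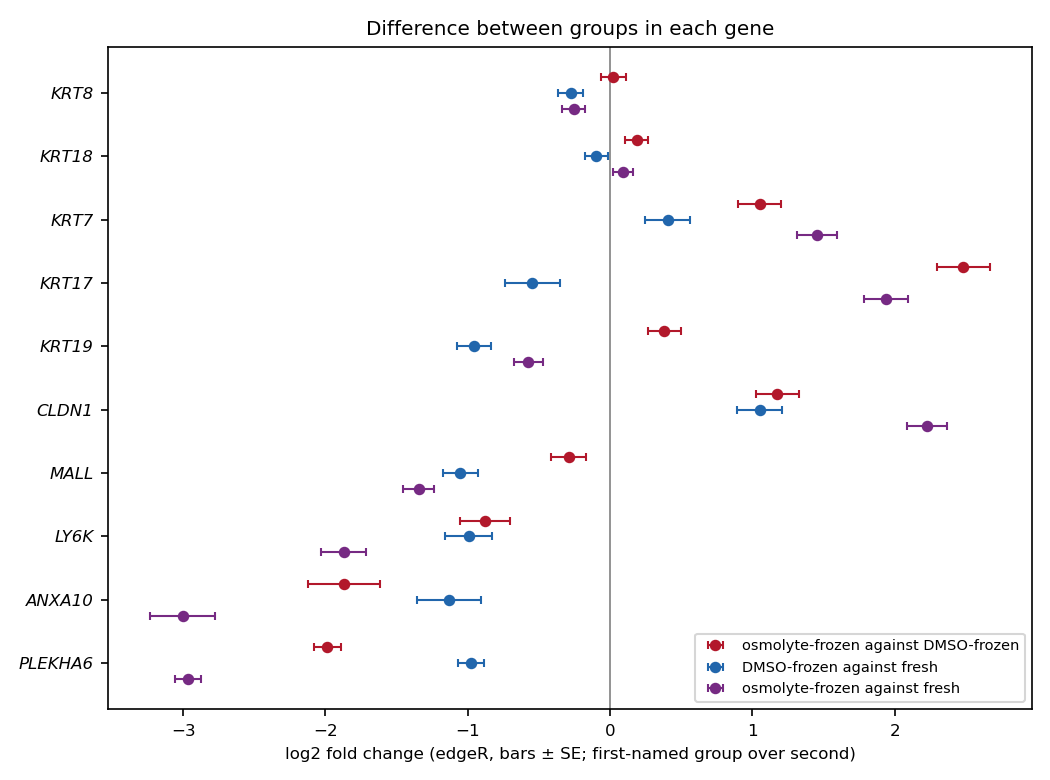
Fold change of each of the 10 genes in 3 comparisons. The x axis is the log2 fold change from edgeR, first-named group over second, and bars are ± 1 SE. They are a description, since several of the genes were chosen on some of these differences and the choice of the others is not given. KRT17 reaches 2.48 in osmolyte-frozen against DMSO-frozen cells with the opposite sign in DMSO-frozen against fresh cells, while PLEKHA6 and ANXA10 lie near -3.00 in osmolyte-frozen against fresh cells.

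Single libraries were also set side by side, with 95% intervals that cover counting error only. They were computed on counts divided by 2, because every deposited count is even, and they are not a test of the conditions. Cells frozen after 1 h in DMSO and fresh cells after 1 h with DMSO shared the agent and the time. Between them the CPM ratio of PLEKHA6 was 0.523 (0.472 to 0.579), of MALL 0.484 (0.407 to 0.574) and of KRT19 0.495 (0.417 to 0.586). LY6K stood at a ratio of 0.449 (0.351 to 0.572), ANXA10 at 0.478 (0.362 to 0.626) and CLDN1 at 1.81 (1.28 to 2.59). KRT8 stood at 0.886 and KRT18 at 0.958, and the intervals of KRT7 and KRT17 held 1. Several of these genes were chosen on their difference between DMSO-frozen and fresh cells, so the ratios describe that choice. Between the frozen libraries held for 1 h and 0 h in DMSO the members had ratios from 0.838 to 1.06, with KRT8 at 1.05 (1.02 to 1.07). Over all genes these pairs of libraries were nearly equally far apart, with a median absolute log2 ratio of 0.14 over 15522 genes for frozen against fresh cells and 0.13 over 15529 genes for 1 h against 0 h in DMSO before freezing.

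Among fresh cells, 1 h in medium against 0 h gave ratios of 1.53 (1.22 to 1.91) for ANXA10, 1.40 (1.14 to 1.72) for LY6K, 1.19 (1.16 to 1.21) for KRT8 and 1.07 (1.04 to 1.10) for KRT18, and the other 6 intervals held 1. Fresh cells after 1 h with DMSO had ratios of 0.785 (0.635 to 0.971) for ANXA10, 0.857 (0.839 to 0.874) for KRT8 and 0.920 (0.896 to 0.944) for KRT18 against those after 1 h in medium. Among the osmolyte solutions, ANXA10 stood at 0.450 (0.210 to 0.905) in SMC against SGI, on 24 and 60 counts. KRT8 stood at 1.03 (1.01 to 1.06) in that pair. KRT8 and KRT18 were 0.934 and 0.906 in SMC against SGC, and 0.904 and 0.926 in SGI against SGC. KRT19 stood at 0.825 (0.694 to 0.980) in SGI against SGC. SMC cells were also held longer than the others, so solution and time differ together there. Over all genes the median absolute log2 ratio was 0.16 for 1 h in medium against 0 h and 0.17 for 1 h with DMSO against medium. It was 0.16, 0.12 and 0.15 for SMC against SGC, SGI against SGC and SMC against SGI. KRT8 and KRT18 have narrow intervals because their counts are high, so an interval without 1 does not mark a wide difference.

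The genes nearest in profile were found by the root mean square difference of centred log2 CPM over the 8 libraries, among 10700 tested genes with a mean of at least 5 CPM. For PLEKHA6 these were NMNAT2 at 0.206, CHI3L1 at 0.263 and MYPN at 0.304. ANXA10 was nearest to EREG at 0.328, PLEKHA6 at 0.369 and NMNAT2 at 0.409. KRT17 was nearest to ADM2 at 0.292, ANKRD1 at 0.301 and EFNA1 at 0.378. For CLDN1 they were FBLN5 at 0.138, CELF2 at 0.161 and MIAT at 0.168, and for LY6K the laminin gene LAMB3 at 0.176, BEX1 at 0.190 and ALDH1A3 at 0.195. MALL was nearest to SPOCD1, TCF7 and ARHGAP6, KRT7 to ST3GAL5, C1orf198 and AK5, and KRT19 to CBR3, UNC5B and CLIC3. KRT8 and KRT18, whose profiles were nearly flat, were nearest to TRNP1, TEAD4 and NGFRAP1 and to RPS14, RPL10 and SEC11A. Among members, KRT8 and KRT18 were 0.156 apart, KRT7 and CLDN1 0.373, and MALL and LY6K 0.311.

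Most other keratins were hardly detected. Of 50 further keratin genes, 17 were at 0 in every library, 43 had a mean under 0.1 RPKM and 10 passed the filter on low counts. KRT10, a keratin of differentiating epidermis, was the highest at 10.8 RPKM, followed by KRT80, a widely expressed type II keratin, at 4.92 RPKM. KRT80 rose to 37.9 ± 1.81 CPM (SD, n = 3) in the osmolyte-frozen group, where DMSO-frozen cells had 24.3 ± 2.82 CPM (SD, n = 2) and fresh cells 21.3 ± 0.354 CPM (SD, n = 3), with adjusted p of 7.23e-05 and 3.97e-07 by edgeR's quasi-likelihood test. In osmolyte-frozen against DMSO-frozen cells 2 of 10 rose and 0 fell, the second being KRT79 at 0.644 against 0.188 CPM. In DMSO-frozen against fresh cells 0 rose and 2 fell, KRT14 at 0.0416 against 0.400 CPM and KRT15 at 1.72 against 3.24 CPM. In osmolyte-frozen against fresh cells KRT80 and KRT10 rose and KRT14 and KRT15 fell. Of all tested genes, 13.6%, 1.25% and 19.1% were called higher in these 3 comparisons and 16.5%, 0.617% and 21.0% lower. KRT79, KRT14 and KRT15 are named because the counts are small, and were chosen after their values were seen. KRT79 lost its call without the SGI library or that frozen in DMSO at 0 h, which left KRT80 alone, and without the SMC library 4 keratins were called. Without any of 4 libraries, fresh 0 h, fresh 1 h DMSO or either DMSO-frozen one, 0 were called in DMSO-frozen against fresh cells, and 1 without fresh 1 h medium. KRT10 lost its call against fresh cells without fresh 0 h, fresh 1 h DMSO, SGC or SGI. The median log2 fold change of the 10 was 0.74, -0.52 and 0.30 in the 3 comparisons in this order, beside 0.04, -0.01 and 0.02 for all genes. Only 2 of the 10 averaged at least 5 CPM, so these medians rest mostly on genes with few counts. A shift of keratins as a whole was not tested.

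Genes of epithelial junctions and identity, 45 tested of 58, went both ways. In osmolyte-frozen against DMSO-frozen cells 9 rose and 7 fell, with a median log2 fold change of 0.14. Called in either direction, these were 35.6% of those tested. Of all 15564 genes, 4684 were called in either direction, 13.6% higher and 16.5% lower. PPL, which encodes the desmosome-linked protein periplakin, rose to 23.6 ± 5.01 CPM (SD, n = 3) in the osmolyte-frozen group, against 12.8 ± 1.75 CPM (SD, n = 2) in DMSO-frozen ones (adjusted p = 0.000786, edgeR quasi-likelihood). ITGA6, the laminin-binding integrin alpha 6, fell to 36.3 ± 3.21 CPM (SD, n = 3), where DMSO-frozen cells had 78.6 ± 6.16 CPM (SD, n = 2) (adjusted p = 2.01e-06, edgeR quasi-likelihood). LAMA3 and LAMB3, which encode laminin chains of epithelial basement membranes, fell by log2 fold changes of -1.04 and -0.97. Leaving out the 0 h DMSO-frozen library, 8 genes of the list were called in place of 16.

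In DMSO-frozen against fresh cells 3 genes of this list rose and 2 fell. Called in either direction, these were 11.1% of those tested. Of all 15564 genes, 291 were called in either direction, 1.25% higher and 0.617% lower. PPL rose by a log2 fold change of 0.88, CD24, a surface glycoprotein, by 0.73 and PKP2, a plakophilin of desmosomes chosen after its value was seen, by 0.53. LAMB3 fell to 9.87 ± 0.131 CPM (SD, n = 2) in DMSO-frozen cells, against 17.3 ± 0.857 CPM (SD, n = 3) in fresh ones (adjusted p = 0.000485, edgeR quasi-likelihood). PPL lost its call without the library frozen after 1 h in DMSO, and PKP2 lost its call without either one of the DMSO-frozen libraries.

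In osmolyte-frozen against fresh cells 13 rose and 8 fell, with a median log2 fold change of 0.30. Called in either direction, these were 46.7% of those tested. Of all 15564 genes, 6236 were called in either direction, 19.1% higher and 21.0% lower. PPL, at 23.6 against 6.90 ± 0.855 CPM (SD, n = 3), and JUP, which encodes plakoglobin of desmosomes and adherens junctions, at 38.5 ± 2.55 CPM against 18.5 ± 2.15 CPM (SD, n = 3 each), were the named genes that rose. LAMB3 fell, at 5.03 ± 0.330 CPM (SD, n = 3) against 17.3 CPM, with an adjusted p of 4.05e-10 by edgeR's quasi-likelihood test. DDR1, a collagen receptor and the highest of the list by RPKM, averaged 18.4 RPKM. The summed level of the list was 1040 to 1195 CPM in osmolyte-frozen, 1239 to 1242 CPM in DMSO-frozen and 1204 to 1358 CPM in fresh cells.

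Relatives of the members by gene family were counted in the same way. In the 3 comparisons, osmolyte-frozen against DMSO-frozen, DMSO-frozen against fresh and osmolyte-frozen against fresh, 13.6%, 1.25% and 19.1% of all genes were called higher. The shares called lower were 16.5%, 0.617% and 21.0%. Of 14 tested claudins and tight junction relatives of CLDN1, 0 rose and 1 fell in osmolyte-frozen against DMSO-frozen cells, where CLDN11, a claudin of myelin and testis, averaged 25.2 ± 1.26 CPM (SD, n = 3) in the osmolyte-frozen group and 69.6 ± 2.16 CPM (SD, n = 2) in the DMSO-frozen group (adjusted p = 1.40e-09, edgeR quasi-likelihood). Neither tool, edgeR or DESeq2, called any in DMSO-frozen against fresh cells (0), with 2 at an unadjusted p under 0.05, and 3 rose and 1 fell in osmolyte-frozen against fresh cells. Without fresh 1 h DMSO, fresh 1 h medium or SGI, 2 of these 4 were called, and without SMC or the library frozen for 1 h in DMSO 2 were called in place of 1 between the frozen groups. Of 26 tested relatives of MALL, LY6K, ANXA10 and PLEKHA6, 2 rose and 3 fell between the frozen groups, 1 rose in DMSO-frozen against fresh cells, and 5 rose and 6 fell in osmolyte-frozen against fresh cells. Without the 0 h DMSO-frozen library 3 in place of 5 were called between the frozen groups. ANXA3, an annexin, rose to 87.7 ± 9.16 CPM (SD, n = 3) in the osmolyte-frozen group and 56.1 ± 2.37 CPM (SD, n = 2) in DMSO-frozen cells, against 40.8 ± 0.680 CPM (SD, n = 3) in fresh cells. It was the single call in DMSO-frozen against fresh cells and was lost without either DMSO-frozen library. PLEKHA2, which like PLEKHA6 has a pleckstrin homology domain, stood lower, at 80.6 ± 2.17 CPM (SD, n = 3) in the osmolyte-frozen group, against 123 ± 10.5 CPM (SD, n = 2) in DMSO-frozen cells. ANXA5 was the highest of these relatives at 334 RPKM.

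Of 17 other intermediate filament genes and linkers tested, 1 rose and 6 fell in osmolyte-frozen against DMSO-frozen cells. In DMSO-frozen against fresh cells 0 were called by edgeR (2 at an unadjusted p under 0.05) and 1 by DESeq2. In osmolyte-frozen against fresh cells 1 rose and 9 fell. Of all tested genes, 13.6%, 1.25% and 19.1% were called higher in these 3 comparisons and 16.5%, 0.617% and 21.0% lower. LMNB1, which encodes lamin B1 of the nuclear lamina, fell to 39.3 ± 4.60 CPM (SD, n = 3) in the osmolyte-frozen group, against 54.3 ± 1.07 CPM (SD, n = 2) in DMSO-frozen and 58.4 ± 5.22 CPM (SD, n = 3) in fresh cells, and SYNC, which encodes syncoilin, fell by log2 fold changes of -0.51 and -0.45. Between the frozen groups 4 in place of 7 were called without SGC or without either DMSO-frozen library. Of 23 genes of epithelial-mesenchymal transition and mesenchymal cells, 5 rose and 3 fell in osmolyte-frozen against DMSO-frozen, 1 rose and 1 fell in DMSO-frozen against fresh, and 8 rose and 4 fell in osmolyte-frozen against fresh cells. SNAI1, a repressor of E-cadherin, fell to 10.7 ± 1.32 CPM (SD, n = 3) in the osmolyte-frozen group and 13.7 ± 2.17 CPM (SD, n = 2) in DMSO-frozen cells, against 20.7 ± 1.77 CPM (SD, n = 3) in fresh cells. DCN, which encodes the matrix proteoglycan decorin, rose to 149.7 ± 33.1 CPM (SD, n = 3) in the osmolyte-frozen group, against 52.01 ± 3.84 CPM (SD, n = 2) in DMSO-frozen and 40.6 ± 9.44 CPM (SD, n = 3) in fresh cells. FN1, fibronectin, was the highest of this list at 4451 RPKM. DCN lost its call between the frozen groups without the 0 h DMSO-frozen library. SNAI1 lost its call between them without SGC, SGI or the 1 h DMSO-frozen library, and with library totals alone as scaling. Between the frozen groups 4 in place of 8 were called without either DMSO-frozen library. In DMSO-frozen against fresh cells 1 was called without fresh 1 h DMSO and 0 without the 0 h DMSO-frozen library, the call of SNAI1 being lost in both.

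**Figure D4:**
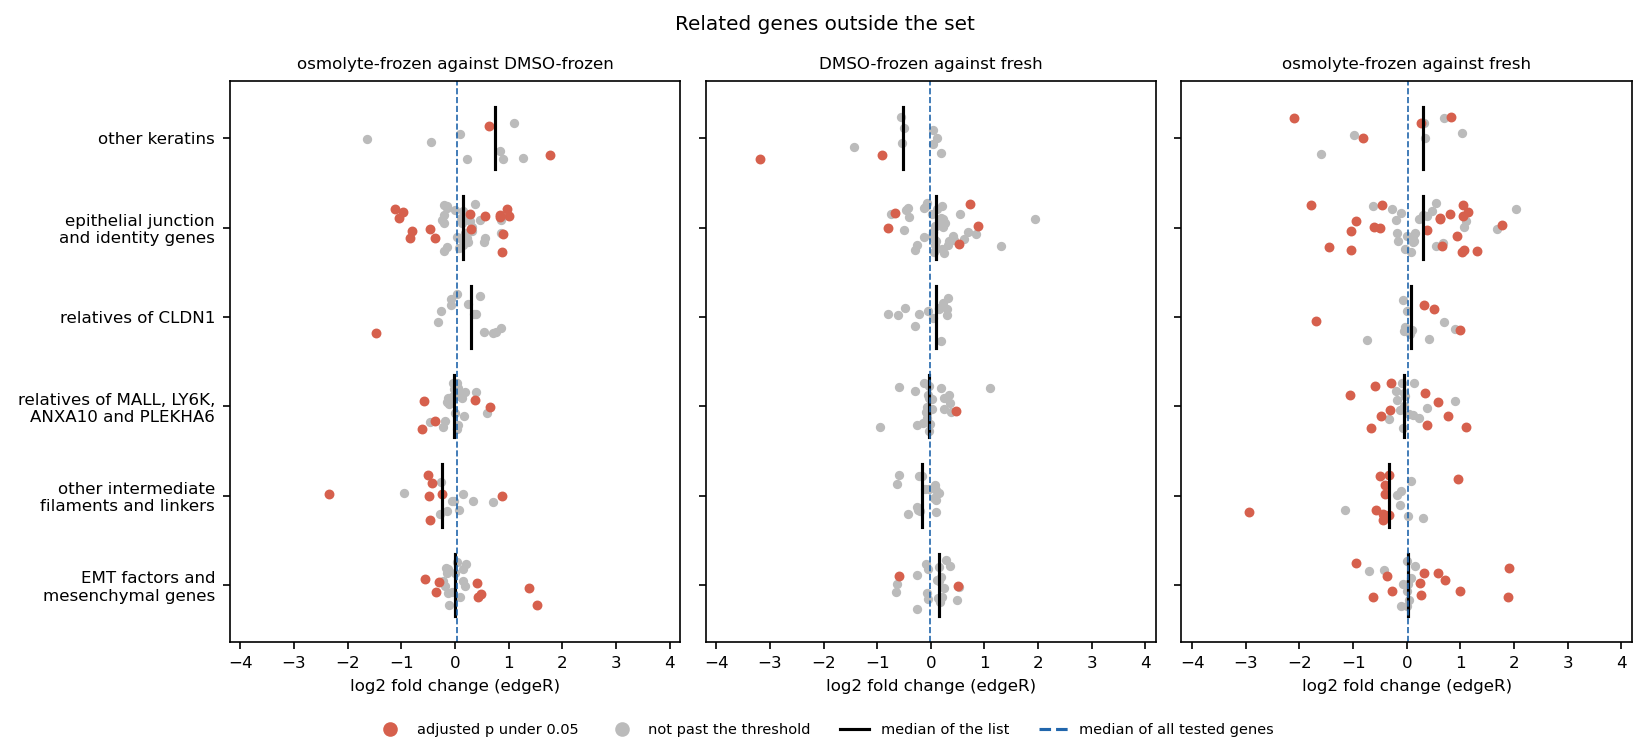
Fold change of related genes outside the set. Each point is a tested gene, with the log2 fold change from edgeR on the x axis, coloured where the adjusted p was under 0.05, the black bar is the median of the list and the dashed line that of all genes. Epithelial genes lie on both sides of 0 in each comparison, with 9 called higher and 7 lower in osmolyte-frozen against DMSO-frozen cells, and the other intermediate filaments lie mostly below 0 in osmolyte-frozen cells.

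Markers of other cell types were counted as well, and their part in the results was not tested. Over all genes, 13.6% were called higher and 16.5% lower in osmolyte-frozen against DMSO-frozen cells. The shares were 1.25% and 0.617% in DMSO-frozen against fresh, and 19.1% and 21.0% in osmolyte-frozen against fresh cells. A mean under 0.1 RPKM was found for 7 of 11 keratinocyte, 8 of 13 trophoblast, 4 of 10 mesothelial, 4 of 11 pluripotent stem cell and 9 of 12 endothelial and blood markers. Of 11 keratinocyte markers 6 were tested, with 1 rising between the frozen groups, 1 falling in DMSO-frozen against fresh cells, and 3 rising and 2 falling in osmolyte-frozen against fresh cells. Their summed level was 42.5 to 54.04 CPM in osmolyte-frozen, 38.9 to 40.2 CPM in DMSO-frozen and 36.3 to 42.4 CPM in fresh cells, mostly from KRT10, while TP63 averaged 0.00167 and KRT6A 0.00158 RPKM. Between the frozen groups 3 were called without SMC and 0 without SGC, SGI or the 1 h DMSO-frozen library. Without any one of the 5 libraries compared, 0 were called in DMSO-frozen against fresh cells, and without fresh 1 h DMSO or SGC 3 in place of 5 were called in osmolyte-frozen against fresh cells.

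Of 13 trophoblast markers 4 were tested, and TFAP2A and GATA3, transcription factors also active in other tissues, rose in osmolyte-frozen against both other groups. DMSO-frozen against fresh cells gave 0 calls by either tool, edgeR or DESeq2, with 1 at an unadjusted p under 0.05. The trophoblast sum was 98.4 to 100.9 CPM in osmolyte-frozen, 75.01 to 80.96 CPM in DMSO-frozen and 72.5 to 79.99 CPM in fresh cells, with 5 markers, CDX2 among them, at 0 in every library. GATA3 lost its call between the frozen groups without SMC, SGI or either DMSO-frozen library, and against fresh cells without SMC or fresh 1 h DMSO. Of 10 mesothelial markers 6 were tested, with 1 rising and 1 falling between the frozen groups and 2 rising and 1 falling in osmolyte-frozen against fresh cells. DMSO-frozen against fresh cells gave 0 calls by edgeR or DESeq2, with 3 at an unadjusted p under 0.05. Their sum was 24.02 to 26.1 CPM in osmolyte-frozen, 29.5 to 29.99 CPM in DMSO-frozen and 24.9 to 25.7 CPM in fresh cells, with WT1 at 0.00116 RPKM, and 1 in place of 2 was called between the frozen groups without either DMSO-frozen library.

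Of 11 pluripotent stem cell markers 8 were tested, with 2 rising between the frozen groups and 7 rising in osmolyte-frozen against fresh cells. Between DMSO-frozen and fresh cells edgeR and DESeq2 called 0, with 1 at an unadjusted p under 0.05. Their sum was 23.7 to 28.1 CPM in osmolyte-frozen, 19.6 to 19.8 CPM in DMSO-frozen and 17.6 to 18.5 CPM in fresh cells, with SOX2 at 0.00777 RPKM. EPCAM and CDH1 belong to this list as well as to the epithelial one and were among the 7, at 1.91 against 1.01 CPM for EPCAM and 0.847 against 0.342 CPM for CDH1, named after their values were seen. The 7 came to 3 without fresh 1 h DMSO and to 4 without fresh 0 h, SGC or SGI, and the 2 came to 1 without SGC or the 1 h DMSO-frozen library. CDH1 lost its call without fresh 0 h, SMC or SGC.

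Of 12 endothelial and blood markers 5 were tested, with 0 rising and 1 falling between the frozen groups and 1 rising in osmolyte-frozen against fresh cells. Neither edgeR nor DESeq2 called any in DMSO-frozen against fresh cells (0), with 2 at an unadjusted p under 0.05, and 1 was called without fresh 0 h. Their sum was 41.3 to 47.6 CPM in osmolyte-frozen, 50.9 to 55.6 CPM in DMSO-frozen and 36.96 to 46.2 CPM in fresh cells, mostly from TEK, with PTPRC at 0.00927 RPKM. Between the frozen groups 2 were called without fresh 1 h medium, and 0 without SGC or either DMSO-frozen library. Of 12 tested markers of mesenchymal stromal cells 1 rose and 8 fell between the frozen groups, 0 rose and 2 fell in DMSO-frozen against fresh cells, and 2 rose and 9 fell in osmolyte-frozen against fresh cells. Their summed level was 5568 to 6460 CPM in osmolyte-frozen, 8728 to 8825 CPM in DMSO-frozen and 7669 to 8693 CPM in fresh cells. Of the 2 that fell in DMSO-frozen against fresh cells, the count was 1 without any one fresh library, SGC or SGI, and 0 without either DMSO-frozen library.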

How the data were processed

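The RNA was extracted using a miRNeasy kit and sequenced as Illumina libraries, per the labels' protocols. Reads were processed by the authors with CASAVA 1.9, TopHat, HTSeq and build hg19, per the submitters' processing notes. Strand setting, mate counting and annotation release are unknown from those notes. The deposited counts are whole numbers per gene, not normalized by the authors, and all of them are even (0 odd values) for a reason no source states. The RPKM the authors deposited scale counts by coding length and by a library total above the sum of counts, per the file headers and values. They were used for levels between genes and as an alternative.

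Of 23398 entries, 41 repeated identifiers had identical counts and were kept once and 8 with differing counts were kept apart, leaving 23354 genes. Tests used R 4.3.3 and, on the counts, edgeR 4.0.16 (filterByExpr, 15564 genes kept; TMM scaling; robust glmQLFit of 3 groups with 5 residual degrees of freedom; glmQLFTest; Benjamini-Hochberg adjustment over all genes at 0.05), after a test on simulated data. An SE is the absolute log2 fold change over the square root of F. CPM are TMM-scaled. Alternatives were other scalings, no filter, DESeq2 1.42.0, non-robust estimation, log2(RPKM + 0.1), each library left out and, added after the data were seen, counts divided by 2.

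The 10 genes and the gene lists (other keratins, epithelial junction and identity genes, relatives of CLDN1, relatives of MALL, LY6K, ANXA10 and PLEKHA6, intermediate filaments, mesenchymal genes, and markers of 6 cell types) were chosen with earlier results of these data known. Named genes were the 10, up to 4 called genes per list and comparison with the largest change, at least 5 CPM in the higher group and groups that do not overlap, the highest gene of a list by RPKM, and the 3 nearest profiles of each member. The values of 1 gene that the rule names are not reported here. Promoters for 5 of the 10 genes come from RefSeq (GRCh38.p14). Intervals of 95% cover counting error only.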

Additional observations from a re-analysis of the deposited data

How the results depend on the processing

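Of 450 fold changes of the 10 genes under alternatives, 443 stayed within 1 SD of the reported value. The 7 others came with the deposited RPKM, for KRT7, KRT8, KRT17, KRT18 and CLDN1 between the frozen groups and for CLDN1 and PLEKHA6 in osmolyte-frozen against fresh cells. The sign changed for KRT8 between the frozen groups alone (-0.08 to 0.07, reported 0.02). In DMSO-frozen against fresh cells DESeq2 called 496 genes in place of 291. There 1 other keratin was called in place of 2 with no filter on low counts, with DESeq2 and with counts divided by 2. The cause of these shifts was not tested. Library totals alone gave 56.4% of calls higher between the frozen groups, against 45.3%. With 1 library left out, genes called ran from 2136 to 5254 between the frozen groups, 91 to 311 in DMSO-frozen against fresh and 5001 to 6080 in osmolyte-frozen against fresh cells. Members called ran from 6 to 7, 4 to 6 and 8 to 9 in these 3 comparisons, epithelial genes called from 8 to 17, 3 to 6 and 19 to 22, and other keratins called from 1 to 4, 0 to 2 and 3 to 5. Fewer than 100 counts lie behind ANXA10 in every osmolyte-frozen library, KRT17 in both DMSO-frozen libraries, fresh 0 h and fresh 1 h DMSO, CLDN1 in fresh 0 h and fresh 1 h medium, and LY6K in SMC, which limits their precision. No paired analysis was possible because the labels give no shared replicate numbers.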
